A study of Mus musculus with 12 samples.

Results

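The postsynaptic density is the protein-rich plate beneath the receptors of an excitatory synapse. Its membrane-associated guanylate kinase (MAGUK) scaffolds hold glutamate receptors at the membrane, and SAPAP, Shank and Homer proteins join that layer to metabotropic receptors and to the actin of the dendritic spine. Calcium entering through the receptors acts on calmodulin-dependent kinases, small GTPase regulators shape the spine, and auxiliary subunits set how AMPA receptors gate and where they sit. In the cortex many of these genes are already transcribed around birth, before most spines have formed.

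The 42 genes described here were taken from a named list of gene symbols, proposed with earlier results of these data known, out of 51912 gene rows in each library. They comprise 4 MAGUK scaffolds (Dlg1, Dlg2, Dlg3 and Dlg4), 4 SAPAP scaffolds (Dlgap1, Dlgap2, Dlgap3 and Dlgap4), and 6 Shank and Homer scaffolds (Shank1, Shank2, Shank3, Homer1, Homer2 and Homer3). A further 8 are other scaffolds and adaptors (Lrrc7, Cnksr2, Magi1, Magi2, Baiap2, Begain, Sorbs2 and Ppp1r9b), and 6 are calmodulin-dependent kinases or the calmodulin-binding protein neurogranin (Camk2a, Camk2b, Camk2d, Camk2g, Camk4 and Nrgn). The last 2 groups are 7 regulators of small GTPases (Kalrn, Iqsec1, Iqsec2, Iqsec3, Agap2, Psd3 and Sipa1l1) and 7 AMPA receptor auxiliary subunits (Cacng2, Cacng3, Cacng7, Cacng8, Shisa6, Shisa7 and Shisa9). All 42 were abundant enough to be tested.

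RNA depleted of ribosomal RNA was sequenced with molecular identifiers from the cortex of newborn (P0) mice, with 4 libraries in each of 3 groups. In dKO-N, both genes of the histone variant H3.3, H3f3a and H3f3b, were deleted with Neurod6-Cre, a driver active in newly postmitotic excitatory neurons. In dKO-E the same 2 genes were deleted with Emx1-Cre, a driver active from the dorsal progenitors onward, so that progenitors, excitatory neurons and cortical glia are targeted. The third group was labelled control. Cortical interneurons, vessels and meninges lie outside both drivers and stay in the tissue. The sources used here do not give the strain, the alleles of the controls or any pooling of animals, and the labels do not say that each library is a separate animal, so the p-values measure the spread between libraries. In bulk tissue, fewer cells of a type and less RNA per cell cannot be told apart.

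The libraries held 722080 to 3502017 gene counts in dKO-N, 1452515 to 2503581 in dKO-E and 1974975 to 3083599 in control. As a check of the labels, H3f3a stood at 22.1 to 37.8 CPM (counts relative to the scaled library total) in dKO-N and 22.9 to 30.0 CPM in dKO-E. The libraries labelled control 2 and control 4 had 117 and 121 CPM, but those labelled control 1 and control 3 had 17.7 and 16.4 CPM, which goes against their label. H3f3b stood at 111 to 146 CPM in dKO-N and 167 to 180 CPM in dKO-E. The libraries labelled control 2 and control 4 had 76.7 and 84.2 CPM of H3f3b. Those labelled control 1 and control 3 had 121 and 143 CPM, within the dKO-N range, so both H3.3 genes set the same control libraries apart. Whether counted reads fall in the deleted part is not given in the sources used here, and counts outside it check nothing. Below, control means the libraries so labelled, and the main counts are also given without control 1 and 3. Only dKO-E 3 and 4 carried more than 3 Y-linked counts, and dKO-N 4, the deepest library, stood apart from the other dKO-N libraries in Cacng8 by Dixon's test and was lowest of them in Nrgn and Agap2, which did not reach that test's critical value. Meis2, which marks striatal neurons but not them alone, stood at 1696 CPM in dKO-N 4, 995 to 1120 CPM in dKO-N 1 to 3 and 848 to 950 CPM in control. Of the 8 striatal markers, 3 were tested. The others tested, Ppp1r1b and Drd1, stood at 6.91 and 5.71 CPM in dKO-N 4. These values lay within the 2.72 to 9.65 and 4.14 to 8.16 CPM of dKO-N 1 to 3. Summed markers of excitatory cortical neurons were 2309 to 2939 CPM in dKO-N, 1603 to 2081 CPM in dKO-E and 3304 to 3791 CPM in control, with none of the 10 at 0 throughout. The 10 radial glia markers summed to 503 to 561 CPM in dKO-N, 444 to 562 CPM in dKO-E and 337 to 403 CPM in control, with 1 of them at 0 throughout. The 8 intermediate progenitor markers summed to 100.03 to 108 CPM in dKO-N, 69.9 to 90.3 CPM in dKO-E and 41.3 to 55.8 CPM in control, with 1 at 0 throughout. The sum of 10 interneuron markers overlapped, at 2272 to 2719 CPM in dKO-N, 2064 to 2505 CPM in dKO-E and 2163 to 2833 CPM in control. Erbb4 made up 1767 to 2516 CPM of that sum in each library, and Npy was the 1 interneuron marker called, lower in both knockouts at 2.72 to 18.7 CPM in dKO-N and 3.92 to 9.51 CPM in dKO-E, against 24.8 to 39.4 CPM in control (edgeR adjusted p = 0.000138 and 2.59e-06). The 8 astrocyte markers summed to 202 to 311 CPM in dKO-N and 253 to 361 CPM in dKO-E, against 217 to 259 CPM in control. Of the 7 tested, only Aldh1l1 was called. It was higher in dKO-E by 0.89 on the log2 scale relative to control and by 0.70 relative to dKO-N (edgeR adjusted p = 0.00055 and 0.0318). In dKO-E, 3 of these 7 were negative relative to control. The 8 oligodendrocyte lineage markers summed to 70.0 to 98.0 CPM in dKO-N and 83.5 to 97.3 CPM in dKO-E, against 104 to 121 CPM in control. The 8 endothelial and mural markers summed to 76.2 to 97.0 CPM in dKO-N and 76.6 to 108 CPM in dKO-E, against 105 to 115 CPM in control. The 8 thalamic and hypothalamic markers summed to 58.7 to 87.7 CPM in dKO-N and 81.4 to 119 CPM in dKO-E, against 50.6 to 57.5 CPM in control. The part of these markers in the member results below was not tested.

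Proximal promoters are printed for the 3 members with the largest changes (Dlg2, Cnksr2 and Nrgn), for Camk2b, whose calls held under every alternative, and for Sorbs2, the 1 member higher in both knockouts. The windows of Dlg2, Cnksr2, Nrgn and Camk2b show how far the start regions of genes lower in both knockouts differ in composition. Each window runs from 250 bases before to 50 bases after a RefSeq start site (GRCm38.p6), written 5′ to 3′ on the gene's strand. Capitals mark CAGATG, an E-box of the kind bound by Neurod factors, CAGCTG, another E-box, and GGGCGG, the GC box, each on either strand. The 2 E-boxes do not overlap each other, and neighbouring GC boxes may share bases. The Dlg2 window (chr7:91090536-91090835, plus strand) lies inside the gene as GENCODE draws it (chr7:90476672-92449247), at 1 of 3 RefSeq starts of this gene in the table. Cnksr2 is at chrX:158043148-158043447 (minus strand), Nrgn at chr9:37552696-37552995 (minus), Camk2b at chr11:6065699-6065998 (minus) and Sorbs2 at chr8:45507538-45507837 (plus).
Dlg2: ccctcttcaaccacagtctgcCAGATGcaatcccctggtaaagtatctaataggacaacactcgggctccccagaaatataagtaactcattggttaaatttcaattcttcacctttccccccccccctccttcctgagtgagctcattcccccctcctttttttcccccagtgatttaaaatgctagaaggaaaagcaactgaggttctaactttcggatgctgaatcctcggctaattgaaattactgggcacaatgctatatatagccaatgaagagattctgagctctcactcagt
Cnksr2: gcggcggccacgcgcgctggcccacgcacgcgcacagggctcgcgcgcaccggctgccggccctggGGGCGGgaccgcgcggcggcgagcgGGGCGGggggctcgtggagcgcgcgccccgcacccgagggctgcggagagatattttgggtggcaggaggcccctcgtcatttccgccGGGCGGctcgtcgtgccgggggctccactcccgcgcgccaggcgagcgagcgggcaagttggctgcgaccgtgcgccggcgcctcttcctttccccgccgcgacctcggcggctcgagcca
Nrgn: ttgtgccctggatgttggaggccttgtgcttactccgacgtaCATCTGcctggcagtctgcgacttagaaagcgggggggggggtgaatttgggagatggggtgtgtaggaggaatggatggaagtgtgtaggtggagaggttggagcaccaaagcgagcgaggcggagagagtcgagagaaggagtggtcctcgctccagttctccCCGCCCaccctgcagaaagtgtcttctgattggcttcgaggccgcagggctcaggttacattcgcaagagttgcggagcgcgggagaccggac
Camk2b: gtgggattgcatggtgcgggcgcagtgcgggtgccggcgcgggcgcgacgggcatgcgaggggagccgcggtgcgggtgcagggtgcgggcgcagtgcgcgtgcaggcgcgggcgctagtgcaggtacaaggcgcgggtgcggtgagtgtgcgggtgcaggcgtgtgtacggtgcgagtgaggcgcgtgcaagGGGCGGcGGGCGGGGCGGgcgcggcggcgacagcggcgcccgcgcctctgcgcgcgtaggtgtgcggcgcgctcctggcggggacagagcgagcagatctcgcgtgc
Sorbs2: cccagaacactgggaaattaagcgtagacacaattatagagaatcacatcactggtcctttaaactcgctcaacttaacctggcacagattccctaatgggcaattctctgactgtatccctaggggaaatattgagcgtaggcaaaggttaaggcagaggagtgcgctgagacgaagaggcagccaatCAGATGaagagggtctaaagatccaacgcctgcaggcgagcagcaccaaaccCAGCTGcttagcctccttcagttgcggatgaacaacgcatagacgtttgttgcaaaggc
The Dlg2 window has a GC content of 44.7% and no GC box, and the Sorbs2 window has 49.0% and none. The Camk2b and Cnksr2 windows have 77.3% and 79.0% GC and 3 GC boxes each, and the Nrgn window has 59.3% and 1. Over the 33 members matched to the table, with 56 windows, the median GC content was 60.2%, against 61.7% over the 11166 windows of all genes tested.

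Of the 56 member windows, 8 (14.3%) held CAGATG, against 11.3% of the windows of all genes tested. The CAGCTG E-box was in 17 (30.4%) member windows, against 15.2% of those of all genes tested. GGGCGG was in 30 (53.6%), against 62.9%, and the cyclic AMP response element TGACGTCA in 0, against 3.1%. Of the members lower in both knockouts, 8 had windows, 13 in all. Among these 13, CAGATG was in 2, CAGCTG in 3 and GGGCGG in 7. A match describes the letters in a window and nothing about binding.

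Relative to the scaled library total, the summed level of the group was lower in both knockouts. The 42 members summed to 16311, 15716, 17359 and 17051 CPM in dKO-N and to 14769, 15372, 15892 and 15527 CPM in dKO-E, against 20770, 19152, 19443 and 19172 CPM in control. Every knockout library lay below every control library. Dlg2 alone made up much of that gap. Without Dlg2 the sums were 13588 to 15463 CPM in dKO-N and 13285 to 14459 CPM in dKO-E, against 15154 to 16067 CPM in control, so dKO-N then overlapped control and dKO-E did not.

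In dKO-N, 12 of the 42 members passed an adjusted p of 0.05 (edgeR quasi-likelihood test, Benjamini-Hochberg over all 11076 genes tested), 1 higher and 11 lower, or 28.6% of the members. Over all genes tested, 11.3% passed in dKO-N, 5.04% higher and 6.29% lower. The median log2 fold change was −0.16 over the members and 0.01 over all genes, and 34 of the 42 members were negative. In dKO-E, 21 members passed, 5 higher and 16 lower, or 50% of the members, where 20.2% of all genes passed, 10.1% higher and 10.1% lower. The dKO-E median was −0.14 over the members and 0.01 over all genes, with 30 of 42 negative. The 2 comparisons share the control libraries, so their results are not independent. Among the 5353 genes whose log2 CPM averaged 5 or more, where more genes pass, the shares were 16.3% in dKO-N (6.31% higher, 9.96% lower) and 27.6% in dKO-E (11.6% higher, 16% lower). Between the knockouts, 2 members (4.76%) passed, against 6.84% of all genes (3.11% higher and 3.73% lower in dKO-E), with Camk2d higher and Dlg2 lower in dKO-E.

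Without control 1 and 3 the counts were 8 members in dKO-N (1 higher, 7 lower) and 15 in dKO-E (4 higher, 11 lower). The calls lost were Shank2, Homer1, Homer2 and Baiap2 in dKO-N and Shank2, Homer2, Lrrc7, Magi1, Nrgn and Iqsec2 in dKO-E. Without dKO-E 3 and 4 the dKO-E count was 11 (1 higher, 10 lower), and the calls lost were Dlg4, Shank2, Lrrc7, Magi1, Sorbs2, Nrgn, Iqsec2, Agap2, Sipa1l1 and Cacng3. Each of these fits has 2 libraries fewer in 1 group. The shares of all genes that passed in the fits with libraries left out are not given here. Whether the members lost calls faster than all genes is therefore not shown. Without dKO-N 4 the dKO-N count was again 12. Leaving out 1 library at a time gave 9 to 12 members in dKO-N and 16 to 23 in dKO-E. The 5 members higher in dKO-E became 3 without control 2, without control 4, without dKO-E 3 or without dKO-E 4. The 1 member higher in dKO-N, Sorbs2, became 0 without control 2, and there were 2 without dKO-N 2. Between the knockouts, the 2 members became 1 without control 4, dKO-N 3, dKO-N 4 or dKO-E 4, and 4 without dKO-N 1 or dKO-N 2.

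**Figure D1:**
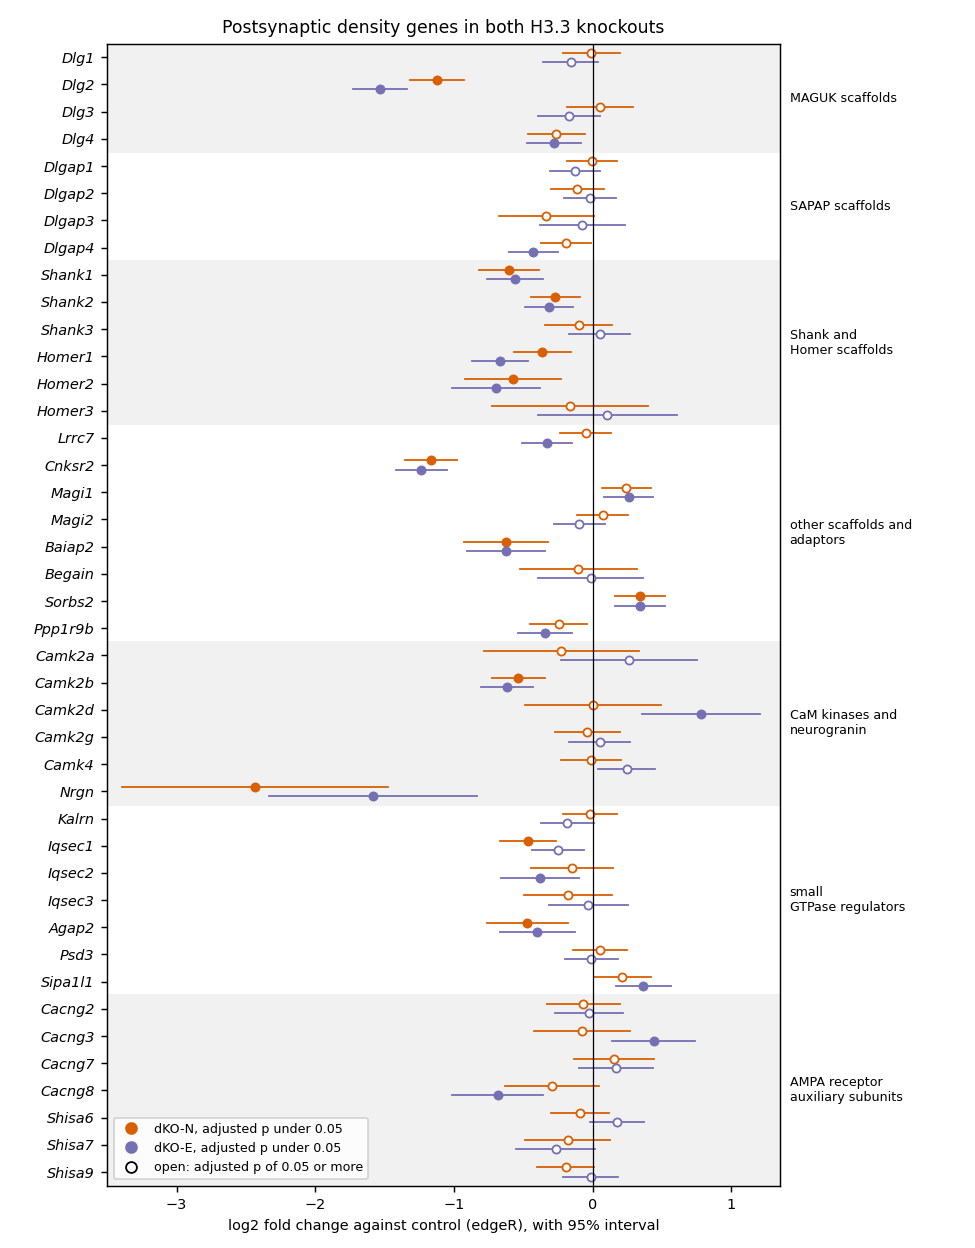
Log2 fold change against control (x axis) of each of the 42 members (y axis, grouped by role) in dKO-N and dKO-E, with 95% intervals from the edgeR fit; filled points have an adjusted p under 0.05. Dlg2, Cnksr2 and Nrgn lie farthest to the left in both knockouts, 10 members are filled and negative in both, and Sorbs2 is filled and positive in both.

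Of the 4 MAGUK scaffolds, 1 (25%) passed in dKO-N, where 11.3% of all genes did, and 2 (50%) in dKO-E, where 20.2% did. All of these calls were lower. Among genes whose log2 CPM averaged 5 or more, 16.3% passed in dKO-N and 27.6% in dKO-E. Dlg2, whose product anchors NMDA receptors and potassium channels, had 1863, 2128, 2135 and 1588 CPM in dKO-N and 1485, 1407, 1433 and 1464 CPM in dKO-E, against 4703, 3998, 4138 and 3909 CPM in control. The 3 groups did not overlap, with dKO-E lowest, and the libraries labelled control 1 and 3 lay with control 2 and 4. Its log2 fold change was −1.12 ± 0.0955 in dKO-N (SE, adjusted p = 3.43e-11, edgeR) and −1.53 ± 0.0961 in dKO-E (adjusted p = 4.90e-15). Dlg2 also fell in dKO-E relative to dKO-N, by 0.41 ± 0.0951 on the log2 scale (SE, adjusted p = 0.00629, edgeR). That difference held without any 1 library, but its adjusted p was 0.0916 without dKO-E 3 and 4.

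Dlg4, the MAGUK that dominates mature synapses, fell by 0.28 on the log2 scale in dKO-E, to 114 ± 4.15 CPM against 140 ± 12.9 CPM in control (SD, n = 4 each; edgeR adjusted p = 0.0338). In dKO-N it averaged 116 ± 6.37 CPM, with a log2 fold change of −0.26 and an adjusted p of 0.0986 by edgeR, or 0.0475 without control 1. The dKO-E call was lost without control 2, 3 or 4 or without dKO-E 1, 2 or 4, with adjusted p-values of 0.0679 to 0.121. Dlg1 and Dlg3 did not pass in any comparison. Per kilobase of exon, Dlg2 made up 72.1 ± 4.25% of the MAGUK level in dKO-N and 68.4 ± 2.06% in dKO-E, against 84.4 ± 1.47% in control (SD, n = 4 each). Per kilobase of whole gene, its share was 12.6 ± 1.89% in dKO-N and 10.3 ± 0.689% in dKO-E, against 22.0 ± 2.40% in control. The share was lower in both knockouts on either scale, although its size differed between the scales; no test was made of shares.

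The SAPAP proteins bridge the MAGUK layer to Shank, and none of the 4 passed in dKO-N, where 11.3% of all genes did. In dKO-E 1 (25%) passed, near the 20.2% of all genes. Of genes whose log2 CPM averaged 5 or more, 16.3% passed in dKO-N and 27.6% in dKO-E. Dlgap4 had 277, 271, 281 and 278 CPM in dKO-E, against 337, 408, 367 and 379 CPM in control. No dKO-E library reached the lowest control library, and Dlgap4 fell by 0.43 ± 0.0862 on the log2 scale in dKO-E (SE, edgeR adjusted p = 0.000292). In dKO-N it had 306, 352, 310 and 331 CPM, overlapping control, with a log2 fold change of −0.19 (adjusted p = 0.179, edgeR). The direct difference, dKO-E minus dKO-N, was −0.24 with an edgeR adjusted p of 0.103. Dlgap1 and Dlgap2, among the most abundant members, did not pass: Dlgap1 averaged 2142 ± 183 CPM in dKO-N and 1958 ± 150 CPM in dKO-E, against 2144 ± 91.4 CPM in control (SD, n = 4 each). Dlgap2 averaged 808 ± 118 CPM in dKO-N and 859 ± 31.8 CPM in dKO-E, against 872 ± 36.6 CPM in control.

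Of the 6 Shank and Homer scaffolds, 4 (66.7%) passed in each knockout, all lower. The share of all genes was 11.3% in dKO-N and 20.2% in dKO-E. For genes whose log2 CPM averaged 5 or more it was 16.3% and 27.6%. Shank1 and Shank2, the platform that links SAPAP to Homer and actin, fell in both knockouts. Shank1 had 223, 234, 225 and 173 CPM in dKO-N and 230, 220, 230 and 186 CPM in dKO-E, against 290, 329, 289 and 371 CPM in control. Both knockouts lay below every control library and overlapped each other. The log2 fold change of Shank1 was −0.60 ± 0.106 in dKO-N and −0.56 ± 0.101 in dKO-E (SE, edgeR adjusted p = 7.60e-05 and 6.64e-05). Shank2 averaged 354 ± 25.9 CPM in dKO-N and 344 ± 20.3 CPM in dKO-E, against 428 ± 6.20 CPM in control (SD, n = 4 each), for log2 fold changes of −0.27 and −0.32 (edgeR adjusted p = 0.0367 and 0.00635). Its dKO-N call was lost without any 1 of the control libraries, without dKO-N 1 or 2, or without dKO-E 2, with adjusted p-values of 0.0509 to 0.110. Shank3 did not pass in any comparison.

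Homer1 and Homer2, which tether group I metabotropic glutamate receptors to Shank, also fell in both. Homer1 had 136, 171, 163 and 204 CPM in dKO-N and 129, 134, 147 and 148 CPM in dKO-E, against 232, 213, 222 and 221 CPM in control. No knockout library reached a control library. Homer1 fell by 0.36 ± 0.102 in dKO-N and by 0.67 ± 0.0987 in dKO-E on the log2 scale (SE, edgeR adjusted p = 0.0139 and 2.35e-06). The difference between the knockouts was −0.31 with an edgeR adjusted p of 0.0671. Without dKO-N 1 that p was 0.0152, and the dKO-N call against control was lost (0.0614). Homer2 had 21.8, 21.4, 35.8 and 28.2 CPM in dKO-N and 24.8, 25.5, 21.9 and 26.8 CPM in dKO-E, against 43.1, 33.5, 41.5 and 41.3 CPM in control. Here dKO-N 3 reached above control 2, while dKO-E lay wholly below control. The Homer2 log2 fold changes were −0.57 ± 0.170 in dKO-N and −0.70 ± 0.157 in dKO-E (SE, edgeR adjusted p = 0.0211 and 0.00112). Without control 1, control 3 or dKO-N 2 the dKO-N call was lost, with adjusted p-values of 0.0534 to 0.0668.

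Of the 8 other scaffolds and adaptors, 3 (37.5%) passed in dKO-N, 1 higher and 2 lower. In dKO-E 6 (75%) passed, 2 higher and 4 lower. The share of all genes was 11.3% in dKO-N and 20.2% in dKO-E. For genes whose log2 CPM averaged 5 or more it was 16.3% and 27.6%. Among the other scaffolds, Cnksr2, a connector that joins MAGUK complexes to Ras signalling, changed most. It had 264, 268, 234 and 301 CPM in dKO-N and 229, 258, 255 and 284 CPM in dKO-E, against 633, 616, 589 and 584 CPM in control. Every knockout library lay far below control, and the knockouts overlapped each other. The log2 fold change was −1.17 ± 0.0932 in dKO-N and −1.24 ± 0.0906 in dKO-E (SE, edgeR adjusted p = 5.98e-12 and 2.74e-13). The difference between the knockouts was −0.07, with a 95% interval of −0.26 to 0.12.

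Baiap2, an adaptor that bends membranes and recruits actin regulators, had 32.7, 34.5, 26.2 and 30.3 CPM in dKO-N and 32.0, 28.8, 32.0 and 31.3 CPM in dKO-E, against 47.0, 42.6, 51.4 and 50.1 CPM in control. Both knockouts lay below all control libraries. Baiap2 fell by 0.63 on the log2 scale in both, with SEs of 0.151 in dKO-N and 0.138 in dKO-E (edgeR adjusted p = 0.00369 and 0.000852). Sorbs2, an adaptor between receptors and the actin cytoskeleton, was the 1 member higher in both, at 795 to 935 CPM in dKO-N and 781 to 883 CPM in dKO-E, against 599 to 746 CPM in control. Neither knockout overlapped control, and the log2 fold change was 0.34 in both (edgeR adjusted p = 0.00883 in dKO-N and 0.00544 in dKO-E). Without control 2 the dKO-N value had an adjusted p of 0.0728.

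Of the remaining adaptors, 2 fell and 1 rose in dKO-E without passing in dKO-N. Lrrc7, a scaffold that binds calmodulin-dependent kinase II, averaged 1150 ± 41.4 CPM in dKO-E, against 1448 ± 117 CPM in control (SD, n = 4 each; log2 fold change −0.33, edgeR adjusted p = 0.00609). In dKO-N Lrrc7 averaged 1394 ± 129 CPM, and the dKO-E minus dKO-N difference of −0.28 had an edgeR adjusted p of 0.0502, which was 0.0491 without control 1 and 0.0199 without dKO-N 2. Ppp1r9b, which brings protein phosphatase 1 to spines, averaged 176 ± 20.4 CPM in dKO-N and 162 ± 12.0 CPM in dKO-E, against 207 ± 17.1 CPM in control. It fell by 0.35 on the log2 scale in dKO-E (edgeR adjusted p = 0.00848, or 0.102 with library totals in place of scaling factors) and had a log2 fold change of −0.25 in dKO-N (adjusted p = 0.123). Magi1, a scaffold of the inverted MAGUK type, averaged 631 ± 58.4 CPM in dKO-N and 640 ± 29.5 CPM in dKO-E, against 534 ± 24.2 CPM in control. It rose by 0.26 on the log2 scale in dKO-E (edgeR adjusted p = 0.0304), and its dKO-N value of 0.24 did not pass (0.0727). The Magi1 call in dKO-E was lost without control 2, 3 or 4 or without dKO-E 2, 3 or 4, with adjusted p-values of 0.0601 to 0.109, and its dKO-N value passed without dKO-N 2 (0.0176). Its relative Magi2, among the most abundant members, averaged 2513 ± 312 CPM in dKO-N and 2236 ± 70.4 CPM in dKO-E, against 2390 ± 101 CPM in control (SD, n = 4 each), and passed in neither knockout.

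**Figure D2:**
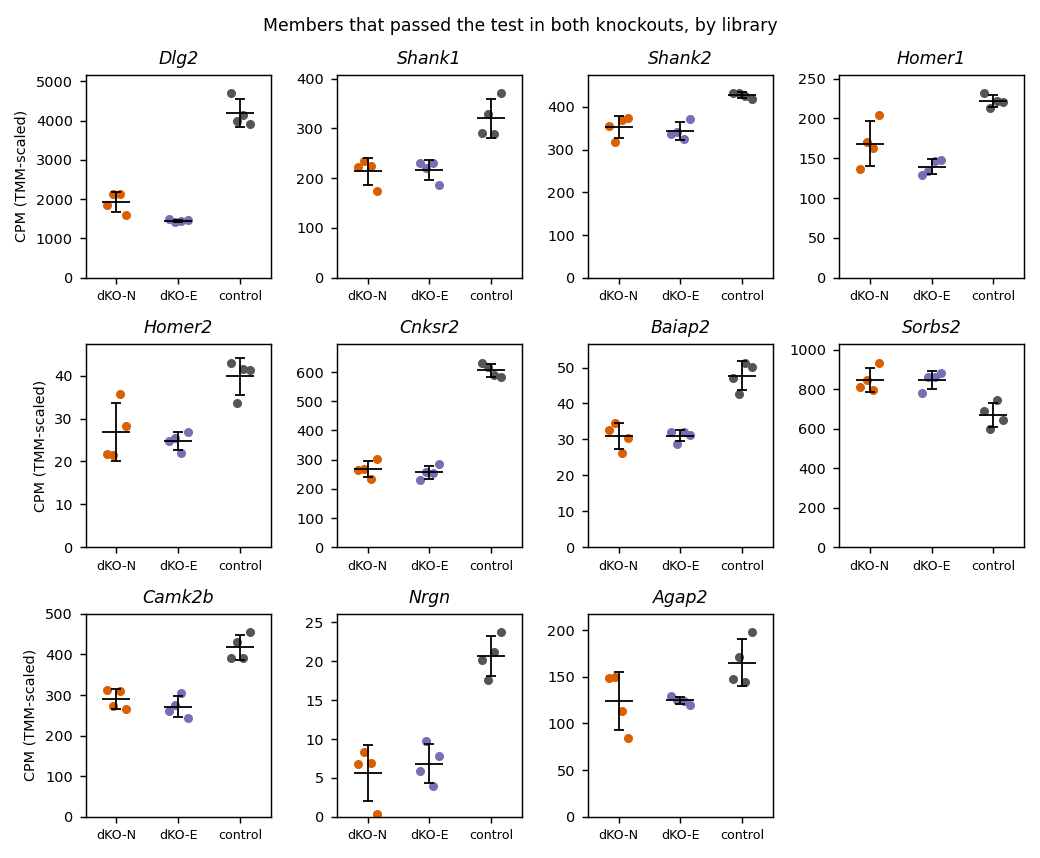
CPM (y axis, scaled by trimmed mean of M values, starting at 0) in each library of dKO-N, dKO-E and control (x axis) for the 11 members that passed the test in both knockouts; points are libraries, and the bar and whiskers are the mean and SD of 4. Dlg2, Cnksr2, Shank1, Shank2, Homer1, Baiap2, Camk2b and Nrgn show both knockouts below every control library, Homer2 and Agap2 show dKO-N overlapping control, and Sorbs2 lies above control.

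Of the 6 calmodulin-dependent kinase and neurogranin genes, 2 (33.3%) passed in dKO-N, both lower. In dKO-E 3 (50%) passed, 1 higher and 2 lower. The share of all genes was 11.3% in dKO-N and 20.2% in dKO-E. For genes whose log2 CPM averaged 5 or more it was 16.3% and 27.6%. The kinase subunits passed the test in opposite directions. Camk2b, the beta subunit of calmodulin-dependent kinase II, which binds actin, had 313, 272, 310 and 265 CPM in dKO-N and 261, 276, 304 and 243 CPM in dKO-E, against 392, 431, 392 and 455 CPM in control. Both knockouts lay below control. The log2 fold change was −0.54 ± 0.0944 in dKO-N and −0.62 ± 0.0913 in dKO-E (SE, edgeR adjusted p = 7.60e-05 and 2.36e-06), and both calls held under every alternative computed. Camk2d, the delta subunit, had 54.4, 64.3, 45.5 and 50.5 CPM in dKO-N and 139, 70.1, 69.6 and 96.8 CPM in dKO-E, against 52.6, 40.5, 63.9 and 55.8 CPM in control. Every dKO-E library lay above every dKO-N and control library, with dKO-E 1 highest. Camk2d rose by 0.78 ± 0.200 on the log2 scale in dKO-E relative to control (SE, edgeR adjusted p = 0.0116) and by 0.78 ± 0.220 relative to dKO-N (adjusted p = 0.0455). Fitted on dKO-E and control alone, its adjusted p was 0.0846. The Camk2d log2 fold change in dKO-N was 0.00, with a 95% interval of −0.49 to 0.49.

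The Camk2d difference between the knockouts had adjusted p-values of 0.0613 to 0.322 without control 1 or 4, without dKO-N 1, 3 or 4, or without dKO-E 4. The library with the highest Camk2d, dKO-E 1, also had the highest sum of 8 meningeal markers. That sum was 106, 40.5, 13.3 and 10.1 CPM in dKO-E 1 to 4, and it ranged over 12.2 to 23.4 CPM in dKO-N and 12.2 to 17.6 CPM in control, with no marker at 0 throughout. Without dKO-E 1, the log2 fold change of Camk2d in dKO-E was 0.54 relative to control (adjusted p = 0.00568) and 0.54 relative to dKO-N (adjusted p = 0.0331). Camk2a, Camk2g and Camk4 did not pass in any comparison. Per kilobase of exon, Camk2b made up 52.6 ± 2.55% of the level of the 4 Camk2 genes in dKO-N and 47.1 ± 4.43% in dKO-E, against 61.0 ± 3.80% in control (SD, n = 4 each). On the whole-gene scale these shares were 48.9 ± 2.72% in dKO-N and 43.5 ± 4.29% in dKO-E, against 57.4 ± 3.92% in control.

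**Figure D3:**
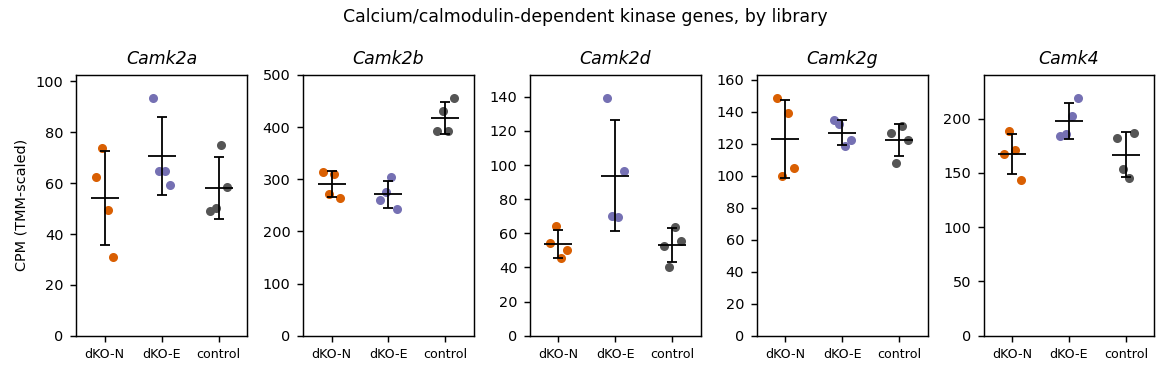
CPM (y axis, starting at 0) of the 4 Camk2 genes and Camk4 in each library of dKO-N, dKO-E and control (x axis); points are libraries, and the bar and whiskers are the mean and SD of 4. Camk2b is lower in both knockouts, Camk2d is higher in dKO-E with dKO-E 1 at 139 CPM, and Camk2a, Camk2g and Camk4 overlap control.

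Nrgn encodes neurogranin, which holds calmodulin when calcium is low, and it had few counts in every library. It had 5, 9, 5 and 1 counts in dKO-N and 9, 24, 10 and 14 counts in dKO-E, against 57, 33, 49 and 46 counts in control. As CPM these were 6.80, 8.39, 6.89 and 0.300 in dKO-N and 5.88, 9.72, 3.91 and 7.83 in dKO-E, against 20.1, 17.6, 21.2 and 23.8 in control. Every knockout library lay below every control library, and dKO-N 4 was far below the rest, its 1 count having an exact Poisson 95% interval of 0.00760 to 1.67 CPM (counting error only). Nrgn fell by 2.44 ± 0.463 in dKO-N and by 1.59 ± 0.360 in dKO-E on the log2 scale (SE, edgeR adjusted p = 0.000812 and 0.00278). The dKO-N value was −1.46 ± 0.337 without dKO-N 4 (adjusted p = 0.00185) and −3.02 ± 0.495 without dKO-N 2 (adjusted p = 9.52e-05). The dKO-E minus dKO-N difference of 0.85 did not pass (adjusted p = 0.385) and was −0.13 without dKO-N 4.

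Of the 7 GTPase regulators, 2 (28.6%) passed in dKO-N, where 11.3% of all genes did, and 3 (42.9%) in dKO-E, where 20.2% of all genes did. Among genes whose log2 CPM averaged 5 or more, the shares were 16.3% in dKO-N and 27.6% in dKO-E. Iqsec1, an exchange factor for Arf GTPases that controls receptor endocytosis, had 171, 143, 165 and 154 CPM in dKO-N and 208, 180, 186 and 160 CPM in dKO-E, against 233, 219, 216 and 202 CPM in control. The dKO-N libraries lay below control, and dKO-E 1 reached into the control range. Iqsec1 fell by 0.47 ± 0.0988 on the log2 scale in dKO-N (SE, edgeR adjusted p = 0.000856), while its dKO-E value of −0.25 ± 0.0928 had an adjusted p of 0.0531. The dKO-E minus dKO-N difference was 0.22 with an edgeR adjusted p of 0.186, so a difference between the knockouts was not shown. The dKO-E value passed without dKO-E 1 (adjusted p = 0.0254), without control 4 (0.0465), or without dKO-N 1, 2 or 4 (0.0199 to 0.0440).

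Agap2, a GTPase-activating protein for Arf that also binds Homer, had 148, 149, 113 and 84.4 CPM in dKO-N and 129, 126, 124 and 120 CPM in dKO-E, against 148, 171, 144 and 198 CPM in control. dKO-N 1 and 2 overlapped control, and dKO-E lay below it. Agap2 fell by 0.47 ± 0.142 in dKO-N and by 0.40 ± 0.132 in dKO-E on the log2 scale (SE, edgeR adjusted p = 0.0294 and 0.0328). Without dKO-N 4 the dKO-N log2 fold change was −0.26 and its adjusted p 0.180, and without control 2, control 4 or dKO-N 3 it was 0.0664 to 0.0986. The dKO-E call was lost without control 2, control 4 or any 1 of the dKO-E libraries, with adjusted p-values of 0.0526 to 0.117.

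Iqsec2, a second Arf exchange factor, fell by 0.38 on the log2 scale in dKO-E, to 41.4 ± 3.74 CPM against 53.7 ± 3.24 CPM in control (SD, n = 4 each; edgeR adjusted p = 0.0486). That call was lost without any 1 control or dKO-E library, with adjusted p-values of 0.0541 to 0.143. In dKO-N it averaged 48.2 ± 12.3 CPM and did not pass (adjusted p = 0.615, edgeR). Sipa1l1, a Rap GTPase-activating protein of spines, rose by 0.37 on the log2 scale in dKO-E, to 293 ± 23.3 CPM against 227 ± 22.4 CPM in control (SD, n = 4 each; edgeR adjusted p = 0.00603). In dKO-N it averaged 260 ± 37.0 CPM and did not pass (adjusted p = 0.195, edgeR). Kalrn, an exchange factor for small GTPases and the most abundant of these genes by CPM, averaged 1672 ± 272 CPM in dKO-N and 1499 ± 53.0 CPM in dKO-E, against 1701 ± 85.6 CPM in control (SD, n = 4 each), and did not pass. Psd3, another Arf exchange factor, averaged 314 ± 40.4 CPM in dKO-N and 304 ± 27.6 CPM in dKO-E, against 306 ± 20.3 CPM in control.

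None of the 7 AMPA receptor auxiliary subunits passed in dKO-N, and 2 (28.6%) passed in dKO-E in opposite directions, near the 27.6% of genes whose log2 CPM averaged 5 or more. In dKO-N 16.3% of those genes passed. Over all genes, 11.3% passed in dKO-N and 20.2% in dKO-E. Cacng8, a transmembrane AMPA receptor regulatory protein, had 22.9, 29.6, 24.6 and 26.8 CPM in dKO-E, against 43.4, 47.4, 42.3 and 35.1 CPM in control. It fell by 0.69 ± 0.161 on the log2 scale in dKO-E (SE, edgeR adjusted p = 0.00168), with no overlap. In dKO-N, Cacng8 had 27.2, 28.0, 27.6 and 43.3 CPM, so that dKO-N 4 alone lay in the control range. Its dKO-N log2 fold change was −0.30 ± 0.167 (SE, edgeR adjusted p = 0.299), and without dKO-N 4 it was −0.61 ± 0.195 (adjusted p = 0.0345). Cacng3, of the same family, had 52.3, 39.3, 65.6 and 51.5 CPM in dKO-E and 39.5, 39.2, 37.2 and 33.6 CPM in dKO-N, against 38.8, 35.1, 46.6 and 32.5 CPM in control. dKO-E 2 overlapped the other groups and dKO-E 3 was highest. Cacng3 rose by 0.44 ± 0.149 on the log2 scale in dKO-E relative to control (SE, edgeR adjusted p = 0.0320). Relative to dKO-N the difference was 0.52 with an adjusted p of 0.0504, and it passed without dKO-N 1, without dKO-N 2 (0.0478) or without dKO-E 2 (0.0212). The call against control was lost without control 1, 2 or 4 or without dKO-E 1, 3 or 4, with adjusted p-values of 0.0512 to 0.236, and the log2 fold change was 0.29 without dKO-E 3. Shisa9, the most abundant of the Shisa subunits by CPM, averaged 369 ± 44.0 CPM in dKO-N and 415 ± 57.4 CPM in dKO-E, against 420 ± 34.5 CPM in control, and did not pass.

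In all, 10 members were lower in both knockouts, 1 was higher in both, 6 were lower and 4 higher in dKO-E without passing in dKO-N, and 1 was lower in dKO-N without passing in dKO-E. Passing in 1 knockout and not in the other is not a difference between them, and of these 11 members only Camk2d passed the direct test. Over all genes tested, 4.58% were lower in both knockouts and 2.95% higher in both. A further 5.51% were lower and 7.16% higher in dKO-E without passing in dKO-N. In dKO-N without passing in dKO-E, 1.72% were lower and 2.08% higher, and 76% of all genes passed in neither knockout. The other 20 members passed in no comparison, with log2 fold changes between −0.34 and 0.49 and a smallest edgeR adjusted p of 0.0825. Leaving out 1 library brought 3 of them past the threshold: Camk4 in dKO-E without dKO-N 4 (adjusted p = 0.0327), Shisa7 in dKO-E without dKO-E 3 (0.0426), and Shisa6 between the knockouts without dKO-N 1 (0.0376). Between the knockouts, 10 members in all, Dlg2 and Camk2d included, had an unadjusted p under 0.05 by edgeR. The share of all genes at that unadjusted threshold is not given here, so an excess among the members is not shown. After adjustment, 4.76% of the members passed, against 6.84% of all genes. Log2 fold changes larger than 1 in size were limited to Dlg2, Cnksr2 and Nrgn among the called members in each knockout.

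The level of a member went with the length of its gene. Across the 42 members, average log2 CPM over the 12 libraries and whole-gene length had a Spearman correlation of 0.769, and average log2 CPM and exon length one of 0.566; over 11059 genes tested these were 0.532 and 0.50. The points share the same 12 libraries, and genes are not independent replicates. Whether reads in introns were counted is not given in the sources used here, so levels between genes are given on both length scales. Per kilobase of exon, Dlg2 was the most abundant member in control at 257 CPM per kb, ahead of Magi2 at 211 and Lrrc7 at 148. Per kilobase of whole gene, Ppp1r9b led at 13.0 CPM per kb, followed by Agap2 at 9.24 and Shank1 at 6.36, while Dlg2 was 13th of 42 at 2.12. Camk2d was lowest on either scale, at 2.37 CPM per kb of exon and 0.213 CPM per kb of gene. The log2 fold changes went less with gene length, with a Spearman correlation of 0.355 in dKO-N and 0.181 in dKO-E across the members, against 0.00976 and −0.0505 across all genes.

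**Figure D4:**
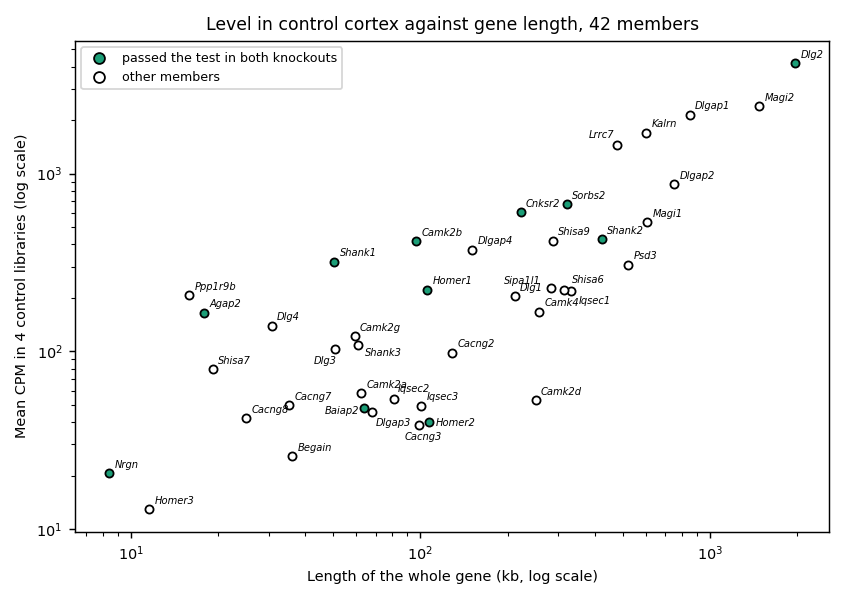
Mean CPM of each of the 42 members in the 4 control libraries (y axis, log scale) against the length of the whole gene in kilobases (x axis, log scale); filled points passed the test in both knockouts. Levels are higher for longer genes, Dlg2 is at the upper right, and the filled members are spread over the whole range from Nrgn at 20.7 CPM to Dlg2 at 4187 CPM.

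Other genes of the same pathways were counted in the same fit. Of 28 other scaffold and spine genes tested, 2 were higher and 6 lower in dKO-N, and 3 were higher and 9 lower in dKO-E, with median log2 fold changes of −0.07 and −0.05. These are 28.6% and 42.9% of the list, against 11.3% and 20.2% of all genes. Of genes whose log2 CPM averaged 5 or more, 16.3% and 27.6% passed. Ablim1, an actin-binding protein, had log2 fold changes of −0.76 in dKO-N and −0.84 in dKO-E (edgeR adjusted p = 1.72e-07 and 7.63e-09). Magi3, the third inverted MAGUK, had −0.56 in dKO-N and −0.78 in dKO-E, and Grip2, which binds AMPA receptors, had −0.52 and −0.74 on the same scale. Tanc1, another scaffold, rose, with values of 0.56 in dKO-N and 0.47 in dKO-E. Between the knockouts 4 of the 28 (14.3%) were lower in dKO-E and 0 higher, where 6.84% of all genes passed. Of genes whose log2 CPM averaged 5 or more, 9.81% passed there. Prickle1, a planar polarity protein, fell by 0.62 and Tnik, a kinase of the postsynaptic density, by 0.42 in dKO-E relative to dKO-N.

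Of 20 other GTPase regulators of spines, 1 was higher and 2 lower in dKO-N, and 2 were higher and 4 lower in dKO-E. Their shares of 15% in dKO-N and 30% in dKO-E were near the 16.3% and 27.6% of genes whose log2 CPM averaged 5 or more. Over all genes the shares were 11.3% and 20.2%. Rasgrf2, a calcium-activated Ras exchange factor, averaged 48.0 CPM in dKO-N and 50.5 CPM in dKO-E, against 154 CPM in control, for log2 fold changes of −1.74 and −1.59 (edgeR adjusted p = 1.52e-12 and 3.62e-13). Its paralogue Rasgrf1 went the other way in dKO-E, at 51.8 CPM against 16.4 CPM in control (log2 fold change 1.68 ± 0.347, SE, edgeR adjusted p = 0.00498). Sipa1l2, a relative of the member Sipa1l1, rose by 0.56 in dKO-N and 0.67 in dKO-E on the log2 scale. Of 11 other AMPA receptor auxiliary or associated genes tested, 1 was higher and 2 lower in each knockout, a share of 27.3%. Over all genes 11.3% passed in dKO-N and 20.2% in dKO-E. Of genes whose log2 CPM averaged 5 or more, 16.3% passed in dKO-N and 27.6% in dKO-E, the latter near the share of this list. Olfm1, a secreted protein found in AMPA receptor complexes, rose by 0.43 in dKO-N and 0.64 in dKO-E on the log2 scale, and Olfm3 fell by 0.66 in dKO-N.

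Of 28 other calcium and calmodulin signalling genes tested, 0 were higher and 10 lower in dKO-N, and 3 were higher and 8 lower in dKO-E, with median log2 fold changes of −0.31 and −0.13. These are 35.7% and 39.3% of the list, against 11.3% and 20.2% of all genes. Of genes whose log2 CPM averaged 5 or more, 16.3% and 27.6% passed. Atp2b2, a calcium pump of the plasma membrane, averaged 184 CPM in dKO-N and 180 CPM in dKO-E, against 350 CPM in control, for log2 fold changes of −0.93 and −0.96 (edgeR adjusted p = 3.34e-09 and 2.96e-10). Gap43, a growth cone protein that binds calmodulin as neurogranin does, fell by 0.77 in dKO-N and 0.57 in dKO-E. Ppp3r1, the regulatory subunit of the phosphatase calcineurin, rose by 0.90 in dKO-E relative to control and by 0.63 relative to dKO-N (edgeR adjusted p = 2.89e-05 and 0.0154). Calm2, which encodes calmodulin, and Camk1d, a related kinase, were also higher in dKO-E than in dKO-N, by 0.45 and 0.32 on the log2 scale.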

How the data were processed

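Per the submitters' processing notes, reads were aligned to mm10 with STAR, molecular duplicates were handled with UMI-tools and reads were counted per gene with HTSeq; versions, annotation and strand settings: not given in the sources used here. What the authors deposited is a table of raw counts by Ensembl gene for each of 12 libraries. HTSeq's 5 summary lines were left out, so that 85.2 to 88.9% of each library's entries were in genes. A floor of 3 counts corresponded to 0.857 to 4.15 CPM.

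Unversioned IDs were matched to GENCODE M21 names (51633 of 51912, 99.5%). Genes were filtered by filterByExpr (minimum count 10), scaled by trimmed mean of M values (TMM) and tested with edgeR 4.0.16 (R 4.3.3, robust glmQLFit, 9 residual degrees of freedom) in 1 fit of 12 libraries with group as the term; p-values were adjusted by Benjamini-Hochberg over 11076 genes, threshold 0.05. The SE is the fold change divided by the square root of F. CPM are TMM-scaled, as mean ± SD. Alternatives included DESeq2 1.42.0; the method was tested on simulated data. Annotated genes overlap 25 members, so shared reads cannot be assigned there. Only Dlg2 and Shisa6 overlap one with over 500 counts. Homer3, with 296 counts over all libraries, overlaps Ddx49 on the opposite strand, which had 364.

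The members and gene lists were chosen with earlier results of these data known. All members past the threshold were named, library values were given for the 14 with the largest changes, and of the members that passed nowhere the 6 most abundant got values; of each pathway list up to 4 called genes per comparison were eligible for naming. Family shares and gene-length levels were chosen after values were seen. The chromatin and single-nucleus data of the study were not used here, and 1 gene of a pathway list is not reported here.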

Additional observations from a re-analysis of the deposited data

Results flagged for a closer look

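In 4 of 126 sets of 4 libraries, 1 library stood apart from the other 3 by Dixon's test at the 95% level, which chance does in about 1 in 20 sets. Cacng8 stood at 43.3 CPM in dKO-N 4, while dKO-N 1 to 3 ranged over 27.2 to 28.0 CPM. Camk2a, the alpha subunit of the kinase, stood at 93.4 CPM in dKO-E 1, while dKO-E 2 to 4 ranged over 59.3 to 64.9 CPM. Magi1 stood at 570.0 CPM in control 1, with 519 to 528 CPM in control 2 to 4, and Dlg3 at 92.9 CPM in control 3, with 105 to 107 CPM in control 1, 2 and 4.

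The direct test between the knockouts called 2 members. The dKO-E minus dKO-N difference on the log2 scale was −0.41 for Dlg2 and 0.78 for Camk2d.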

How the results depend on the processing

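No called fold change of a member reversed. Over all member fold changes and alternatives, 2503 kept their side of the threshold, 109 lost it and 31 gained it. Calls that held under every alternative numbered 6 of 12 in dKO-N (Dlg2, Shank1, Cnksr2, Camk2b, Nrgn and Iqsec1, with Nrgn not testable after thinning), 7 of 21 in dKO-E (Dlg2, Dlgap4, Shank1, Homer1, Cnksr2, Camk2b and Cacng8) and 0 of 2 between the knockouts. The causes of the shifts below were not tested, and the shares of all genes passing under each alternative are not given here.

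In dKO-N, 1 member was higher; library totals gave 3, DESeq2 2 and no filter 0, and leaving out 1 library gave 0 to 2. The 11 lower members became 7 without control 1 and 3 and 7 after thinning every library to the smallest. In dKO-E, the 21 members became 11 without dKO-E 3 and 4, with 1 higher and 10 lower; the 5 higher members became 3 after thinning and 3 to 6 without 1 library. Between the knockouts, the 2 members became 4 with library totals, 4 with no filter, 1 without control 1 and 3, 1 without dKO-E 3 and 4, and 1 to 4 without 1 library. The 1 member higher in dKO-E became 3 with library totals, 3 with no filter, 0 without control 1 and 3, and 0 to 2 without 1 library. The 1 lower became 2 with DESeq2-type size factors, 2 with DESeq2, 0 without dKO-E 3 and 4, and 1 to 2 without 1 library.

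With the replicate number as a block the counts were 11 members in dKO-N, 18 in dKO-E and 2 between the knockouts. Correlations of same-numbered libraries ran from −0.313 to 0.0559, and those of differently numbered libraries from −0.207 to 0.398. With 4 libraries in each group, this check cannot settle whether same-numbered libraries were paired. Library totals moved the median log2 fold change of all genes to 0.0715 in dKO-N and 0.135 in dKO-E. Thinned to the smallest library, 8 members passed in dKO-N and 14 in dKO-E, and Nrgn fell below the filter.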
